A study of Mus musculus with 47 samples.

Results

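JB6 cells that stably carry an shRNA against AnxA2 were compared 24 h after 100 cGy of X-rays with sham-treated cells of the same line at 24 h. The members are the 3 irradiated and the 3 untreated arrays whose titles give this line, dose and time, 6 of the 47 arrays of the series. JB6 is a mouse epidermal cell line used to study tumour promotion, and the labels call these cells progenitors. The shRNA came in a retrovirus with puromycin selection, so every array of this comparison carries the shRNA and the selection marker. The labels do not say whether the line is 1 clone, whether replicates are separate cultures, or which batch an array belongs to. The p-values rest on the spread between arrays within a group, pooled over all 47 arrays, and this spread may be technical. The other groups set beside it are shRNA cells 24 h after 10 cGy, shRNA cells 2 h and 6 h after irradiation, untreated shRNA cells at 2 h, and vector cells, which carry the empty vector, at 24 h after 100 cGy or untreated.

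Annexin A2, the protein of Anxa2, binds calcium and membrane lipids and, together with S100a10, serves as a cell-surface receptor in the plasminogen system. Ionizing radiation breaks DNA and activates p53, which induces the cell cycle inhibitor Cdkn1a, the p53 ligase Mdm2 and the cyclin Ccng1. Acute phase genes such as Saa3, a serum amyloid A, and Lbp, the lipopolysaccharide binding protein, are induced by inflammatory cytokines through NF-kB, C/EBP and STAT3 factors. C1ra and C1s1 encode the proteases C1r and C1s that start the classical complement cascade.

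The values are log2 signals from 1 probe set a gene, and a difference of 1 on this scale is a 2-fold difference. Of the 6 arrays, untreated replicates 1 and 3 stood apart on the first principal component (10.74 and 10.94, with 39.0% of the variance). Untreated replicate 2, at -3.28, lay near irradiated replicates 1 and 2, at -3.08 and -2.24. Irradiated replicate 3 stood apart at the other end, at -13.08. The 3′ minus 5′ difference of the Gapdh control probe sets, a measure of RNA quality, was -0.03, -0.01 and 0.01 in the irradiated arrays, against 0.13, -0.03 and 0.17 in the untreated arrays, so the same 2 untreated arrays were the high ones. For the Actb control probe sets it was 0.33, 0.27 and 0.20 irradiated, against 0.34, 0.26 and 0.41 untreated. There untreated replicate 1 was near irradiated replicate 1. The part of RNA quality in the results was not tested. Anxa2 itself read 10.69 to 10.78 in the irradiated and 10.58 to 10.82 in the untreated shRNA arrays, against 12.25 to 12.47 in untreated vector arrays, a shRNA minus vector difference of -1.68 ± 0.08 (SE, limma adjusted p = 3.54e-19). That is 3.19-fold lower signal in the shRNA cells, where the labels report a knockdown of over 95% of the RNA by other methods.

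The cells were checked against markers of the cell types they could hold. Fibroblast or mesenchymal markers were above the low-signal limit, a log2 mean of 4.35, for 10 of 12 genes, and keratinocyte markers for 4 of 11, with Trp63, Cdh1, Epcam and Dsp below it. Of the 8 leukocyte markers, 4 were above the limit, and the pan-leukocyte gene Ptprc was below it in every array (2.48 to 2.61 irradiated, 2.63 to 2.67 untreated). The summed linear signal was 263 to 284 irradiated and 260.0 to 270.2 untreated for keratinocyte markers, and 343 to 393 irradiated and 336 to 389 untreated for leukocyte markers. It did not overlap between the groups for 7 muscle markers (543 to 585 irradiated, 495 to 515 untreated) or 3 adipocyte markers (115 to 130.4 irradiated, 92.5 to 109.6 untreated), although the defining genes Myod1, Myog and Adipoq were below the limit. Of these 3 adipocyte markers only Fabp4 was above the limit. Another list with 3 tested adipocyte genes, which also holds Fabp4, had a lower sum (589 to 621 irradiated, 623 to 717 untreated). Of its 3 genes, 2 were nonetheless higher (median 0.08), and the brightest, Lpl, differed by -0.25. Sums of lists without a cell type could also fail to overlap, such as p53 targets (14413 to 15011 irradiated, 13547 to 14150 untreated). No marker of any of these cell types was called, and the part of such markers in the results was not tested. In such bulk samples, more cells of a type and more RNA per cell cannot be told apart.

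Promoters are shown for the 3 called genes of the acute phase, complement and IL-6 list, because the results turn on them. They are from RefSeq, build GRCm38.p6, 250 bases before to 50 after a gene start, 5′ to 3′ on the gene's strand. Capitals mark matches on either strand to TTNNGNAA, a core of C/EBP sites, or to TTCNNNGAA, a STAT core. C1s1 has 2 listed starts, and the first is shown.
Saa3, chr7:46715627-46715926, minus strand: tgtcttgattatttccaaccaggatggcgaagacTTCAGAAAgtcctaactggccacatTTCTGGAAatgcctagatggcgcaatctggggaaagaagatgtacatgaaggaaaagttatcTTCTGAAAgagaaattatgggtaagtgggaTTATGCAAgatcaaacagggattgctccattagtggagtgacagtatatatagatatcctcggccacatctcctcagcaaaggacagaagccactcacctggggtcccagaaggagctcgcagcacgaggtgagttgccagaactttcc
C1s1, chr6:124542310-124542609, minus strand: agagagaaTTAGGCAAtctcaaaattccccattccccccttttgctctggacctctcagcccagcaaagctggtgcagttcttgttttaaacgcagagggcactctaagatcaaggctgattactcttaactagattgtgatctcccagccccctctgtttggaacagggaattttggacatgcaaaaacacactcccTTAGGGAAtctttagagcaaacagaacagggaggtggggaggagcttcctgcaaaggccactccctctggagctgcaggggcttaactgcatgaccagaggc
C1ra, chr6:124512371-124512670, plus strand: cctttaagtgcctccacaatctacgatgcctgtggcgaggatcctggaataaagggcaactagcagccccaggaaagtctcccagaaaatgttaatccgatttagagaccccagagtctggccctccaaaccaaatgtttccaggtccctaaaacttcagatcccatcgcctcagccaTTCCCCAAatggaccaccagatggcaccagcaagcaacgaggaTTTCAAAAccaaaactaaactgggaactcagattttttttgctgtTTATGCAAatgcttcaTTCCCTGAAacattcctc
Of the 12 risen genes described next, 9 matched a promoter in that table. TTNNGNAA was in 7 of these 9, against 30.7% of the 7035 promoters of tested genes and 40.7% of all 27025 listed promoters. TTCNNNGAA was in 2 of 9 (C1ra and Dpt), against 6.52% of tested and 8.47% of all listed promoters. An NF-kB motif, searched on both strands, was in 0 of 9, against 10.0% of tested and 8.18% of all listed promoters. These 300-base windows hold letter matches only. The shares were not tested, base composition was not matched, and the genes were picked from these same data. No match in the 9 promoters overlapped one to the other motif.

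Irradiation at 100 cGy was followed at 24 h by a small set of changes. Of 8675 genes tested, 12 rose (0.138%) and 2 fell (0.0231%) at a limma adjusted p under 0.05, with Benjamini-Hochberg adjustment over all tested genes. Among the risen genes were acute phase and complement genes (Saa3, Lbp, C1s1, C1ra), secreted matrix genes (Prelp, Dpt, Ccn5) and 5 genes of other roles (Scara5, Slpi, Cbr2, Plpp3, Cxcl12). The irradiated and untreated arrays did not overlap for any of the 14, as was so for 13.1% of all tested genes. At an unadjusted p under 0.05, 565 genes (6.51%) differed, 203 higher (2.34%) and 362 lower (4.17%), and the median over all tested genes was -0.02. The number of calls dropped to 7 without irradiated replicate 3, to 9 without irradiated replicate 2 and to 9 without untreated replicate 3, and it was 5 with both untreated replicates 1 and 3 left out, a fit added after the data were seen.

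**Figure D1:**
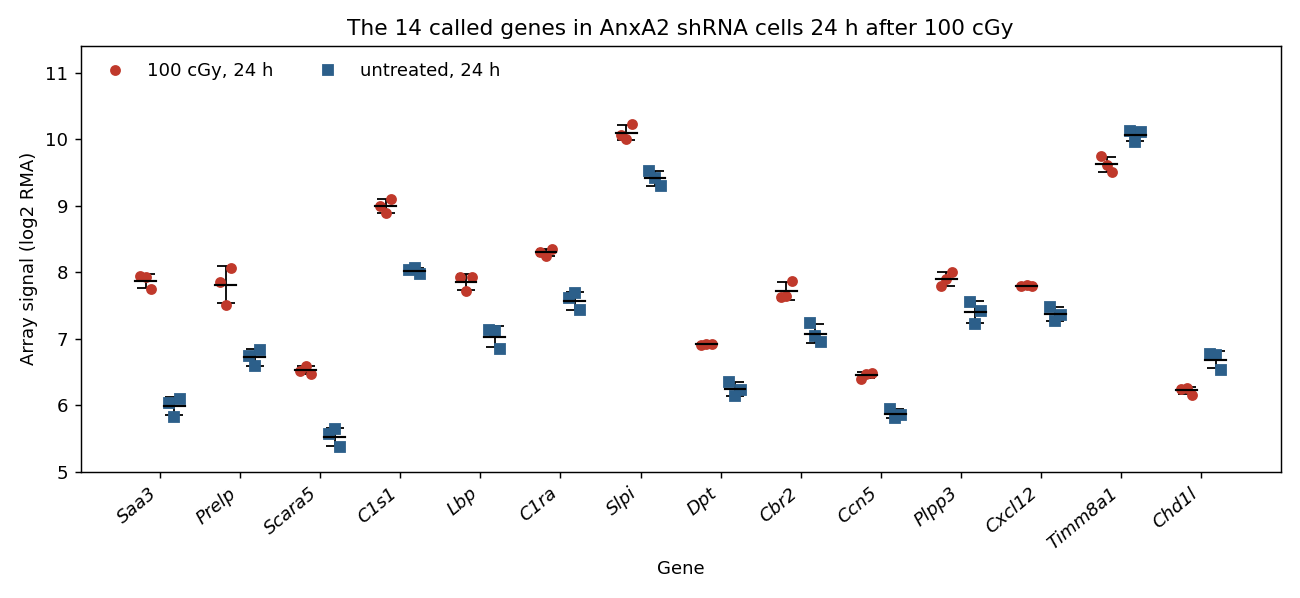
Signal (log2 RMA, vertical axis) of the 14 called genes in AnxA2 shRNA cells at 24 h, with 100 cGy arrays as circles left of untreated arrays as squares; horizontal bars are means and error bars are SDs of 3 arrays. The 12 risen genes have all circles above all squares, and Chd1l and Timm8a1 have them below.

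Saa3 had the largest change. It read 7.94, 7.93 and 7.74 in the irradiated arrays, against 6.04, 5.83 and 6.09 in the untreated arrays. All 3 irradiated arrays lay far above all untreated ones, and the difference was 1.88 ± 0.14 (SE, 3.69-fold, limma adjusted p = 9.28e-12). The gene lies on chromosome 7 from 46711998 to 46719615 in GRCm38.p6. Saa3 has close relatives in mouse, Saa1 and Saa2, and signal shared between them cannot be told apart here. Lbp, whose protein carries bacterial lipopolysaccharide to its receptors, read 7.92, 7.71 and 7.93 irradiated, against 7.13, 7.11 and 6.85 untreated. Its gene is on chromosome 2 from 158306493 to 158332852. All irradiated arrays were higher, by 0.82 ± 0.09 on average (1.77-fold, adjusted p = 1.47e-07).

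C1s1, on chromosome 6 from 124530344 to 124542392, and C1ra, on chromosome 6 from 124512621 to 124523440, both rose. C1s1 read 9.0, 8.88 and 9.10 irradiated, against 8.03, 8.06 and 7.97 untreated, a rise of 0.97 ± 0.08 (1.96-fold, adjusted p = 4.19e-10). C1ra read 8.30, 8.24 and 8.35 irradiated, against 7.61, 7.69 and 7.42 untreated, a rise of 0.73 ± 0.11 (1.65-fold, adjusted p = 7.83e-05). In both genes the 3 irradiated arrays lay within a narrow band above every untreated array. Mouse has the near copies C1s2 and C1rb and the C1s1 probe set is of a type that can match more than 1 transcript, so which copy gave the signal is uncertain. With both untreated replicates 1 and 3 left out, which leaves 1 untreated array, C1ra differed by 0.61 and its call was lost. So were the calls of Scara5, Slpi, Dpt, Cbr2, Ccn5, Cxcl12, Chd1l and Timm8a1, described below.

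The acute phase, complement and IL-6 list, drawn up with earlier results of these data known, held 23 tested genes. Of these, 3 rose (Saa3, C1s1 and C1ra), none fell, and 15 of 23 were higher, with a median of 0.16 beside -0.02 for all tested genes. Other members, chosen after their values were seen, were not called: the metallothionein Mt2 differed by 0.39 ± 0.15, the IL-6 signal transducer Il6st by 0.33 ± 0.13, the siderophore-binding Lcn2 by 0.48 ± 0.20 and the kinase Jak2 by -0.26 ± 0.10 (adjusted p from 0.66 to 0.72). Il6 itself, a low signal, differed by 0.74 ± 0.59. The NF-kB and inflammatory list had 1 called gene of 32, again Saa3, and a median of 0.10.

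Matrix genes were the next group. Prelp, a small leucine-rich proteoglycan, read 7.85, 7.51 and 8.07 irradiated, against 6.73, 6.58 and 6.84 untreated (1.09 ± 0.16, adjusted p = 7.83e-05). Dpt, the matrix protein dermatopontin, read 6.90, 6.92 and 6.92 irradiated, against 6.35, 6.14 and 6.23 untreated (0.68 ± 0.13, adjusted p = 0.0111). Ccn5, a secreted member of the CCN family, read 6.40, 6.47 and 6.48 irradiated, against 5.95, 5.81 and 5.86 untreated (0.58 ± 0.11, adjusted p = 0.00579). The spread between irradiated arrays was widest in Prelp, whose second probe set differed by 1.32, and narrowest in Dpt. The call of Dpt was lost when any array but untreated replicate 1 was left out (adjusted p from 0.053 to 0.0967), and that of Ccn5 without irradiated replicate 3 (0.0546) or untreated replicate 2 (0.0529). Of 48 tested extracellular matrix and mesenchymal list genes, none was called and 32 were higher (median 0.07). Its 2 genes of smallest p were the collagen Col6a1 (0.30 ± 0.09, adjusted p = 0.40) and the proteoglycan Dcn (0.52 ± 0.18, adjusted p = 0.579).

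Scara5, a scavenger receptor that takes up ferritin, read 6.52, 6.59 and 6.47 irradiated, against 5.57, 5.63 and 5.37 untreated (1.0 ± 0.16, 2.0-fold, adjusted p = 0.000501). Its second probe set, with a low signal, differed by -0.04, and the call was lost when both were averaged (0.48, adjusted p = 0.0836). Slpi, a secreted inhibitor of leukocyte proteases, read 10.07, 10.00 and 10.23 irradiated, against 9.52, 9.42 and 9.29 untreated (0.69 ± 0.13, adjusted p = 0.0075). Its groups were well separated, but the call was lost without irradiated replicate 3 (adjusted p = 0.129) or untreated replicate 3 (adjusted p = 0.12). Cbr2, a carbonyl reductase, read 7.62, 7.65 and 7.87 irradiated, against 7.24, 7.04 and 6.95 untreated (0.64 ± 0.13, adjusted p = 0.0153). Without irradiated replicate 2 or 3 its adjusted p was 0.0592 or 0.262, and without untreated replicate 2 or 3 it was 0.0946 or 0.241, and it was 0.0613 with only the compared groups fitted.

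Plpp3, a phosphatase of lysophosphatidic acid at the cell surface, read 7.78, 7.90 and 8.00 irradiated, against 7.55, 7.22 and 7.41 untreated (0.50 ± 0.08, adjusted p = 0.000501). Cxcl12, the ligand of the chemokine receptor Cxcr4, read 7.79, 7.81 and 7.78 irradiated, against 7.47, 7.27 and 7.36 untreated (0.43 ± 0.08, adjusted p = 0.0075). Both rose in each irradiated array, and their second probe sets were also higher, by 0.35 for Plpp3 and 0.27 for Cxcl12. Both calls were lost when only the arrays of the compared groups were fitted (adjusted p = 0.285 for Plpp3 and 0.289 for Cxcl12). The Cxcl12 call was also lost with averaged probe sets (0.35, adjusted p = 0.321) and without irradiated replicate 2 (0.0592) or 3 (0.0546) or untreated replicate 2 (0.0967) or 3 (0.0549).

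Only 2 genes fell. Chd1l, a chromatin remodeller recruited to DNA breaks by poly(ADP-ribose), read 6.25, 6.26 and 6.16 irradiated, against 6.77, 6.75 and 6.54 untreated (-0.46 ± 0.10, adjusted p = 0.0168). Timm8a1, a chaperone of mitochondrial protein import, read 9.74, 9.62 and 9.51 irradiated, against 10.13, 9.95 and 10.11 untreated (-0.44 ± 0.09, adjusted p = 0.0136). Each irradiated array was lower than each untreated array, but the second Timm8a1 probe set differed by -0.01. The Chd1l call held without untreated replicate 3 but not without any of the other 5 arrays (adjusted p from 0.0634 to 0.222), nor with only the compared groups fitted (0.265). The Timm8a1 call was lost with averaged probe sets (-0.23, adjusted p = 0.537), with only the compared groups fitted (0.323), and without irradiated replicate 2 (0.0772) or 3 (0.257) or untreated replicate 1 (0.16) or 3 (0.14).

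The next 8 lower genes by p were not called and are given as values only. Tfrc, the transferrin receptor, differed by -0.28 ± 0.07 (adjusted p = 0.148), Steap1 by -0.29 ± 0.08 (adjusted p = 0.174) and Dnmt1, the maintenance DNA methyltransferase, by -0.40 ± 0.11 (adjusted p = 0.189). Dlx1, a homeobox factor, differed by -0.51 ± 0.13 and Gfm1, a mitochondrial translation factor, by -0.27 ± 0.07. The others were Pgp (-0.37 ± 0.09), Cinp (-0.31 ± 0.08) and Emc6 (-0.28 ± 0.08), and the adjusted p of the 8 lay between 0.0829 and 0.302.

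No p53 target was called at this time, when 0.161% of all tested genes were called. Of 39 tested members, 27 were higher (69.2%, beside 45.3% of all tested genes). Their median was 0.07 beside -0.02 for all tested genes, and 0.04 without untreated replicate 3. Cdkn1a read 10.08, 9.95 and 10.06 irradiated, against 9.98, 10.00 and 9.95 untreated, and the groups overlapped (0.05 ± 0.11, 95% confidence interval -0.17 to 0.28, adjusted p = 0.961). Mdm2 read 9.47, 9.44 and 9.43 irradiated, against 9.38, 9.37 and 9.37 untreated, which do not overlap but differed by only 0.07 ± 0.11 (adjusted p = 0.928). Ccng1 read 11.22, 11.28 and 10.89 irradiated, against 11.16, 10.98 and 11.27 untreated, and the groups overlapped (-0.01 ± 0.11, adjusted p = 0.993). The probe sets of these genes disagreed: the others of Mdm2 and Cdkn1a differed by 0.43 and 0.26, and both others of Ccng1 by 0.50 and 0.30, and the fit on the mean of all probe sets called none of the 3 (adjusted p from 0.757 to 0.934). The members of smallest p were the sulfatase Sulf2 (0.24 ± 0.10) and the Akt inhibitor Phlda3 (0.23 ± 0.10), with adjusted p of 0.717 and 0.728.

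Most genes of DNA replication were lower, with no member called. Of 50 tested, 39 were lower, with a median of -0.11 beside -0.02 for all tested genes, and 9 were lower at an unadjusted p under 0.05, as were 362 of all tested genes (4.17%). The median was -0.07 without untreated replicate 1, and -0.14 without untreated replicate 2. Without untreated replicate 3 it was -0.12, with 41 of 50 lower. It was -0.07 with untreated replicates 1 and 3, the arrays with the raised Gapdh difference, both left out. Its leading members were Dnmt1, above, and Gins1 of the replicative helicase (-0.31 ± 0.09, adjusted p = 0.45). Of 40 DNA repair genes 27 were lower (median -0.07), led by the end-joining factor Xrcc6 (-0.22 ± 0.08) and the recombination factor Brca2 (-0.29 ± 0.10), both with an adjusted p of 0.579. That median was -0.11 without untreated replicate 2, -0.03 without untreated replicate 1 and -0.004 with untreated replicates 1 and 3 left out. The 47 mitotic genes were split, 23 higher and 24 lower (median -0.005), with the mitotic transcription factor Foxm1 at 0.48 ± 0.19 (adjusted p = 0.714) and the kinetochore gene Ndc80 at -0.31 ± 0.13 (adjusted p = 0.716).

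Of 33 gene lists, 29 had no called member. Few genes were called at all (0.161% of those tested), so a list without a call is no result about its members. Of 24 interferon response genes, 18 were higher (median 0.09), with the antiviral membrane protein Ifitm3 at 0.40 ± 0.12 (adjusted p = 0.45). The senescence and secretory list had Cxcl12 as its 1 called gene of 32 (median 0.05), and the YAP, SRF and TGF-beta list had Ccn5 as its 1 of 34 (median -0.02). Among 18 annexin and S100 genes, 15 were higher (median 0.09), with Anxa8 at 0.26 ± 0.09 (adjusted p = 0.582). The 6 plasminogen system genes included the activator Plat at 0.28 ± 0.11 (adjusted p = 0.684). Immediate early genes had Egr1 at -0.35 ± 0.13 and Fos at 0.32 ± 0.13 among 34 (adjusted p of 0.632 and 0.717). Cholesterol and fatty acid synthesis genes were lower in 20 of 28 (median -0.07), with the sterol carrier Stard4 at -0.41 ± 0.14 (adjusted p = 0.579). That median was -0.02 without untreated replicate 1, where 17 of 28 were lower, and -0.009 with untreated replicates 1 and 3 left out, beside -0.01 for all tested genes. Glutathione and NRF2 genes had Mgst2 at 0.67 ± 0.22 (adjusted p = 0.548) among 36 with a median of 0.01. The lysosome and autophagy genes were higher in 23 of 36, with the protease Ctsd at 0.41 ± 0.15 (adjusted p = 0.592).

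**Figure D2:**
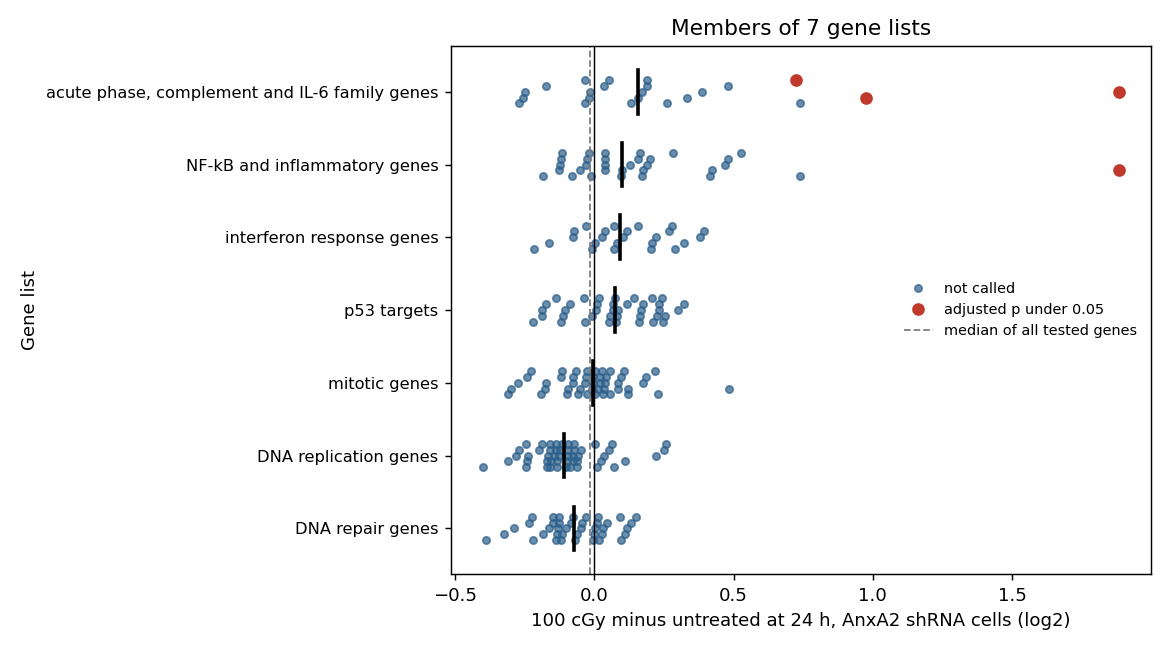
Difference of 100 cGy minus untreated AnxA2 shRNA cells at 24 h (log2, horizontal axis) for every tested member of 7 gene lists; large points have an adjusted p under 0.05, short black bars are list medians, the dashed line is the median of all tested genes, and vertical places within a list only separate points. The called points are Saa3, which is in 2 lists, C1s1 and C1ra; the medians run from -0.11 for DNA replication to 0.16 for the acute phase list.

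The same dose at the same time gave other calls in vector cells. There 6 genes rose (0.0692%) and 2 fell (0.0231%), and none of the 12 genes that rose in shRNA cells was called higher. Cdkn1a read 10.02, 10.17 and 10.25 in irradiated vector arrays, against 9.37, 9.44 and 9.17 in untreated vector arrays, a rise of 0.82 ± 0.11 (1.77-fold, adjusted p = 1.03e-04). This call was lost when its probe sets were averaged (adjusted p = 0.237). Saa3 fell in vector cells, with 8.21, 8.41 and 8.50 irradiated, against 9.13, 9.21 and 9.20 untreated (-0.81 ± 0.14, adjusted p = 0.00295), a call lost without irradiated vector replicate 1 (adjusted p = 0.0645). Ccn5 also fell there (-0.50 ± 0.11, adjusted p = 0.047), a call lost in 9 of 12 alternatives. Besides Cdkn1a, the chemokine Ccl5 (1.05 ± 0.20), Dglucy (0.59 ± 0.09), the annexin Anxa8 (0.55 ± 0.09), the reductase Dcxr (0.55 ± 0.10) and the adenylate kinase Ak1 (0.44 ± 0.09) rose in vector cells, and in shRNA cells these 5 differed by -0.08 to 0.26 and were not called. The Ak1 call was lost in 9 of 13 alternatives, Ccl5 in 5 of 12, Anxa8 in 2 of 13 and Dcxr in 1 of 13, and of the 8 vector calls only 1, Dglucy, held in all that were run. With the replicate number as a block, which treats same-numbered arrays as pairs, 17 genes were called, 10 higher and 7 lower, among them all 8. The vector count was 4 without irradiated vector replicate 1 or 3, and 5 without untreated vector replicate 1 or 3.

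The gene lists also had other counts in vector cells. Of all tested genes, 45.3% were higher in shRNA cells and 56.1% in vector cells, so the counts have different backgrounds. Of the 39 p53 targets, 27 were higher in shRNA cells and 33 in vector cells, where the median was 0.20 and 2 were called. Of the 47 mitotic genes, 24 were lower in shRNA cells and 42 in vector cells (median -0.15, 0 called). DNA replication genes were lower in 39 of 50 in shRNA cells and in 25 of 50 in vector cells. Of the 23 acute phase, complement and IL-6 genes, 15 were higher in shRNA cells and 9 in vector cells, where the median was -0.06 and 1, Saa3, was called, lower. These differences in count were not tested.

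The difference between the 2 responses was itself tested. It was higher in shRNA cells for 6 genes (0.0692%) and lower for 1 (0.0115%). For Saa3 the shRNA response exceeded the vector response by 2.69 ± 0.20 (adjusted p = 6.58e-12), for C1s1 by 1.30 ± 0.12 (2.00e-09), for Scara5 by 1.27 ± 0.23 (0.0038) and for Ccn5 by 1.08 ± 0.15 (5.64e-05). Lbp followed with 0.97 ± 0.13 (1.42e-05) and C1ra with 0.91 ± 0.15 (9.27e-04). The 1 lower gene was Cdkn1a at -0.77 ± 0.16 (adjusted p = 0.0303). Its call was lost without any of the 6 shRNA arrays, without irradiated vector replicate 2 or 3, without untreated vector replicate 3, and when arrays were centred or probe sets averaged (difference from -0.83 to -0.59). The other 6 risen genes were not called in this test, with adjusted p from 0.108 for Cxcl12 to 0.591, and their responses are not shown to differ between the lines.

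**Figure D3:**
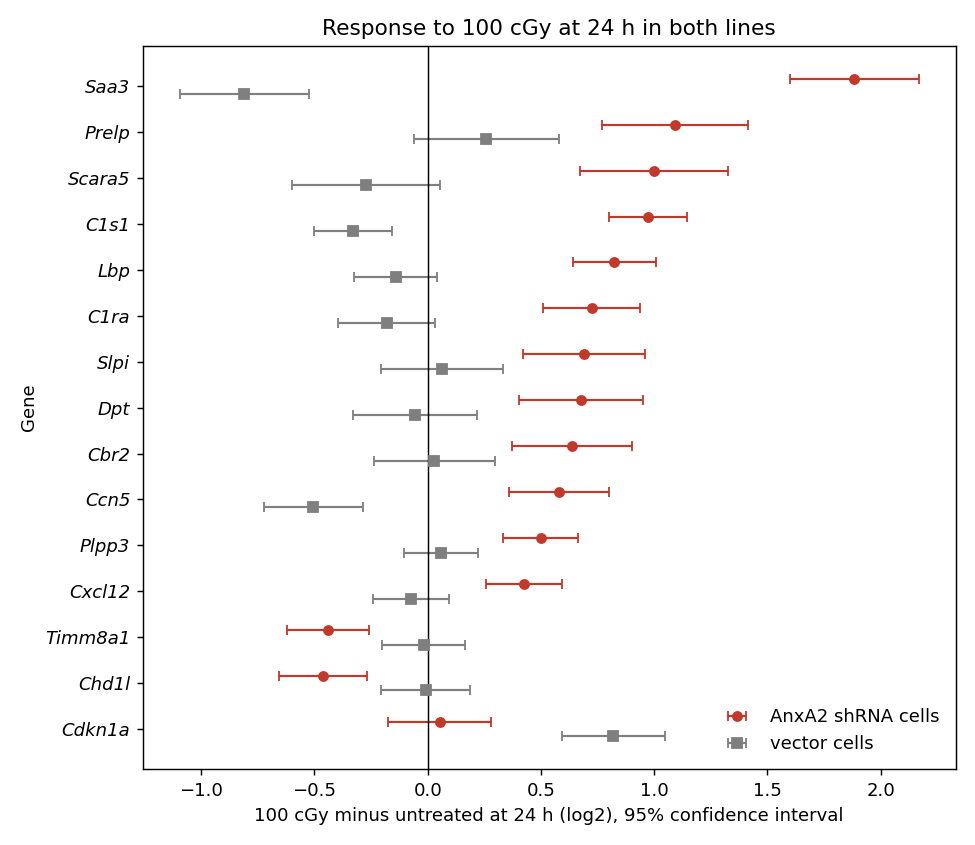
Difference of 100 cGy minus untreated at 24 h (log2, horizontal axis) with its 95% confidence interval for the 14 called genes and Cdkn1a, in AnxA2 shRNA cells (circles, upper of each pair) and vector cells (squares). Saa3 is at 1.88 in shRNA and -0.81 in vector cells, and Cdkn1a at 0.05 in shRNA and 0.82 in vector cells.

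The starting levels of these genes differed between the lines. Untreated at 24 h, shRNA minus vector was -3.62 for Cxcl12, -3.20 for Saa3, -2.43 for Plpp3, -2.28 for Scara5, -2.09 for Slpi and 2.27 for Prelp (all called, as were 39.3% of tested genes). After 100 cGy the shRNA arrays of 5 of the 12 genes (Saa3, Scara5, Slpi, Plpp3 and Cxcl12) were still below every untreated vector array. C1ra and C1s1 overlapped those arrays, with C1ra at 8.24 to 8.35 in irradiated shRNA cells and 8.35 to 8.52 in untreated vector cells. The other 5 (Prelp, Lbp, Dpt, Cbr2 and Ccn5) lay above them. The share of all tested genes that lay wholly below or above those vector arrays was not computed, so these counts have no background. Cdkn1a in untreated cells was higher in the shRNA line by 0.65 ± 0.11 (adjusted p = 1.15e-05).

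The lower dose gave no call. At 10 cGy and 24 h in shRNA cells, limma called 0 genes (0%), and 337 had an unadjusted p under 0.05 (3.88%). The adjusted p of the 14 genes lay between 0.984 and 0.997. Saa3 read 7.94, 7.93 and 7.74 after 100 cGy, against 6.19, 6.33 and 6.21 after 10 cGy. Between 100 and 10 cGy, 14 genes were higher at the larger dose (0.161%) and 0 lower, with 99 lower at an unadjusted p under 0.05 (1.14%). This comparison shares the 100 cGy arrays with the one above. Its 5 largest were Saa3 (1.63 ± 0.14, adjusted p = 3.68e-10), Scara5 (1.07 ± 0.16, 2.10e-04), C1s1 (1.03 ± 0.08, 1.82e-10), Prelp (1.01 ± 0.16, 3.17e-04) and Dpt (0.84 ± 0.13, 4.66e-04). Of the 12 risen genes, Slpi was not called here (0.50 ± 0.13, adjusted p = 0.27). The calls not among the 12, named after their values were seen, were the selenium carrier Selenop (0.58 ± 0.10), the secreted Spon2 (0.64 ± 0.11) and the receptor Notch3 (0.54 ± 0.12). The Notch3 call was lost in 7 of 12 alternatives (adjusted p up to 0.739), and the Selenop call with only the compared groups fitted (0.0898). The count was 6 when only the compared groups were fitted, where Prelp was not called (adjusted p = 0.279), and 9 without 10 cGy replicate 2.

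The response to 100 cGy in shRNA cells differed between 24 h and 2 h. The 24 h minus 2 h difference of the responses to 100 cGy in shRNA cells was higher for 11 genes (0.127%) and lower for 2 (0.0231%), and it rests in part on the same 24 h arrays. The largest were Saa3 (2.09 ± 0.20, adjusted p = 1.10e-08), Prelp (1.49 ± 0.22, 1.86e-04), the calcification inhibitor Mgp (1.26 ± 0.27, 0.0313), Scara5 (1.22 ± 0.23, 0.00582) and Slpi (1.08 ± 0.19, 0.00214). The lower 2 were the thiamine transporter Slc19a2 (-0.78 ± 0.15, 0.00582) and Chd1l (-0.62 ± 0.14, 0.0422). At 2 h itself 2 genes rose (0.0231%), Slc19a2 and Mdm2, and 0 fell, with 247 lower at an unadjusted p under 0.05. Saa3 differed by -0.21 ± 0.14 between 100 cGy and untreated cells (adjusted p = 0.909), and Mdm2 by 0.63 ± 0.11 (adjusted p = 0.00463). The Mdm2 difference at 24 h minus that at 2 h was -0.55 ± 0.15 and was not called (adjusted p = 0.244). Without 100 cGy 2 h replicate 3 the test gave 22 calls, and it gave 8 without 100 cGy 2 h replicate 2 and 8 without 100 cGy 24 h replicate 3. The call of Chd1l was lost in 16 of 21 alternatives and that of Mgp in 11 of 20. The 2 h arrays of 100 cGy replicate 2 and untreated replicate 1 had a raised Gapdh difference (0.49 and 0.31), and without both there were 8 calls.

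Levels without irradiation also moved between 2 h and 24 h, so each response was read within its own time. In untreated shRNA cells, Prelp was lower at 24 h than at 2 h by -0.89 ± 0.16, Saa3 by -0.82 ± 0.14, Slpi by -0.48 ± 0.13, C1s1 by -0.44 ± 0.08 and Cxcl12 by -0.40 ± 0.08, all called (9.14% of tested genes were called lower). Untreated vector cells moved the other way for Saa3, which read 9.13, 9.21 and 9.20 at 24 h, against 6.33, 6.34 and 5.85 at 2 h. Scara5 read 7.63 to 7.96 at 24 h there, against 5.60 to 5.67 at 2 h, and C1ra 8.35 to 8.52 at 24 h, against 6.86 to 7.30 at 2 h. These vector levels over time were not tested, and they were chosen after their values were seen. Across the other 21 shRNA arrays, at every dose and time, the 3 arrays at 100 cGy and 24 h lay above all of them for 8 of the 12 risen genes: Saa3, Scara5, C1s1, Lbp, C1ra, Dpt, Cbr2 and Ccn5. The 12 genes were called because these same 3 arrays were high, so this standing is partly set by the choice of genes. The share of all tested genes that stood so was not computed. For Saa3 the highest of those 21 was 6.88, in untreated cells at 2 h. For Prelp, Slpi and Cxcl12 untreated 2 h arrays reached the irradiated range, with Cxcl12 at 7.84 untreated at 2 h beside 7.78 to 7.81 irradiated at 24 h, and for Plpp3 an array at 10 cGy and 2 h did (7.96). Timm8a1 lay below all 21. No untreated 6 h arrays are among the samples, so the 6 h levels have no matched control.

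**Figure D4:**
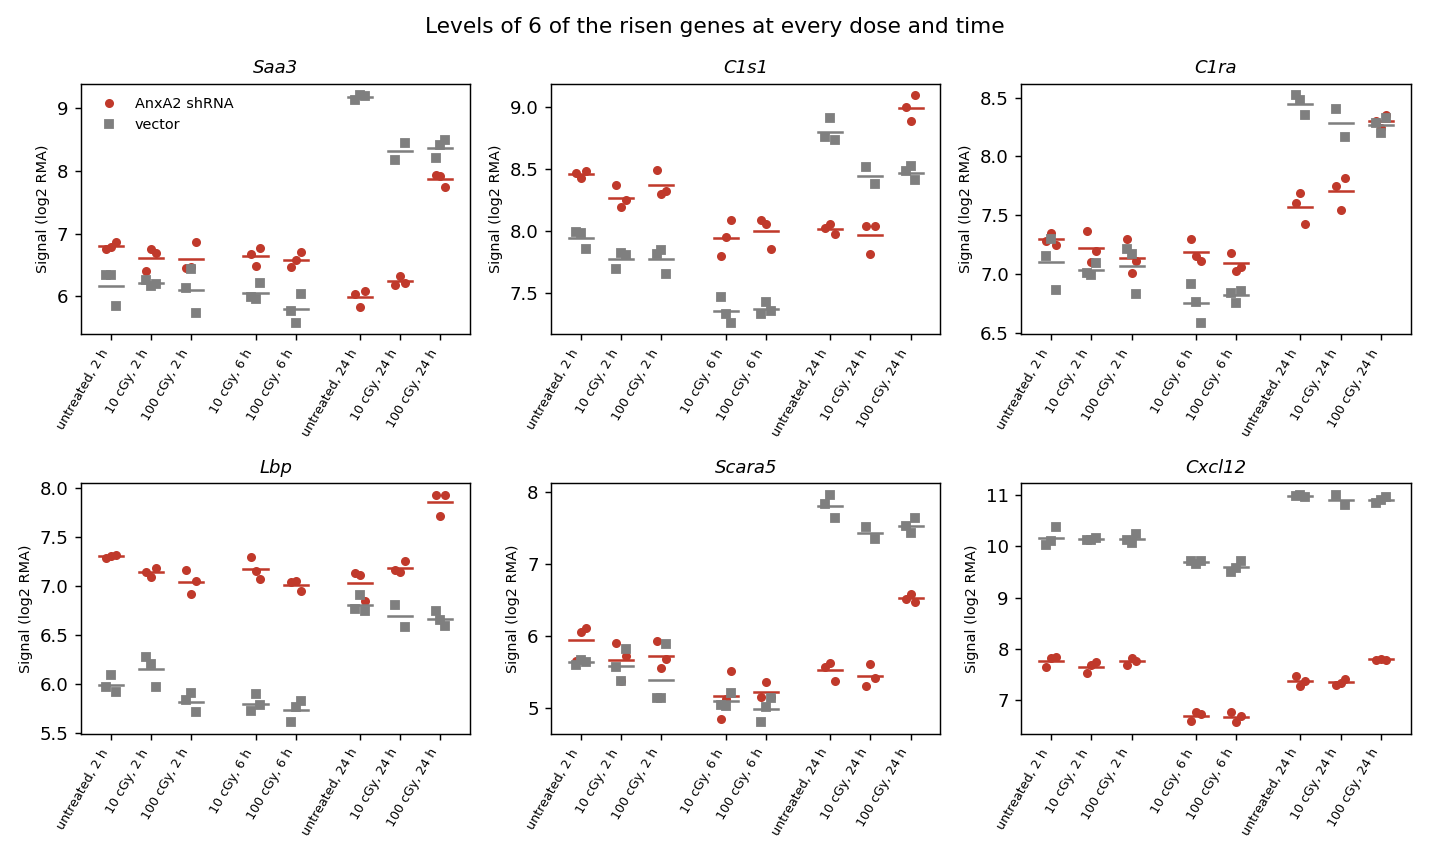
Signal (log2 RMA, vertical axis) of Saa3, C1s1, C1ra, Lbp, Scara5 and Cxcl12 in every group by time and dose (horizontal axis), with AnxA2 shRNA arrays as circles, vector arrays as squares and group means as bars. The shRNA arrays at 100 cGy and 24 h are above the other shRNA arrays in the first 5 panels and level with the 2 h arrays for Cxcl12. The genes shown were called because these same arrays were high, so this standing is partly set by their choice.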

How the data were processed

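Signals were deposited as log2 values, which the authors made by RMA per the submitters' processing notes; neither the array model nor a version of RMA is stated. Values ran from 1.84 to 14.03 and were not normalized again. Per the labels, RNA was labelled by the Affymetrix one-cycle protocol. Of 22690 probe sets, 20380 carry 1 gene symbol in the platform annotation; 691 with several, 1555 with none and 64 controls were left out. The probe set with the highest mean stood for each of 12393 genes, and genes among the dimmest 30% by mean signal (log2 under 4.35) were dropped, which left 8675. Array medians lay between 5.66 and 5.78; depth has no meaning for arrays, and the number of arrays limits the precision.

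Groups come from the labels: 16 groups of line, dose and time. limma 3.58.1 in R 4.3.3 fitted a mean per group to all 47 arrays (31 residual and 5.68 prior degrees of freedom), and two-sided moderated tests were adjusted by Benjamini-Hochberg over all tested genes. Whether replicate numbers pair arrays was checked by correlating deviations from group means of same-numbered arrays. The correlations exceeded 0.1 in all 3 pairs for vector 100 cGy and untreated (0.20, 0.27, 0.15). They also did so for shRNA 100 and 10 cGy (0.19, 0.51, 0.56), and were 0.18, -0.06 and -0.09 for shRNA 100 cGy and untreated at 24 h. Differently numbered vector arrays reached 0.17 (100 cGy replicate 1 and untreated replicate 3). Those of shRNA cells at 2 h reached 0.61 (100 cGy replicate 2 and untreated replicate 1). Any pairing comes from these values, not the labels, and they do not establish it. The code was tested on simulated data. The comparisons, named genes, gene lists and marker lists were chosen with earlier results of these data known. Named were Anxa2, Cdkn1a, Mdm2 and Ccng1; the 15 higher and 15 lower called genes of largest change whose arrays do not overlap, or, with fewer, those called plus those of smallest p up to 10 lower, as values; from each list its called members up to 6, or else the 2 of smallest p; and the 5 higher and 5 lower called genes of largest change in the other tests. Alternatives were the filter, the groups fitted, the replicate block, centring, averaged probe sets, the variance model and each array left out.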

Additional observations from a re-analysis of the deposited data

Results flagged for a closer look

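In 7 genes the response to 100 cGy at 24 h differed between the lines by the test of the difference (shRNA minus vector, log2). Saa3 (2.69), C1s1 (1.30), Scara5 (1.27), Ccn5 (1.08), Lbp (0.97) and C1ra (0.91) were higher and Cdkn1a (-0.77) was lower. Of these, 4 calls (Saa3, C1s1, Lbp and Ccn5) held in every alternative run; the C1ra call was lost with untreated shRNA replicates 1 and 3 both left out (adjusted p = 0.174), the Scara5 call there and with averaged probe sets, and the Cdkn1a call in 12 of 20 alternatives.

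In 13 genes the shRNA response to 100 cGy at 24 h differed from that at 2 h by the same kind of test (24 h minus 2 h, log2). Higher were Saa3 (2.09), Prelp (1.49), Mgp (1.26), Scara5 (1.22), Lbp (1.08), Slpi (1.08), C1s1 (1.07), C1ra (0.88), Cbr2 (0.88), Dpt (0.86) and the purine enzyme Xdh (0.54). Lower were Slc19a2 (-0.78) and Chd1l (-0.62). The calls of 4 genes (Saa3, C1s1, Lbp and Prelp) held in every alternative run, and those of the other 9 were lost in at least 1.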

How the results depend on the processing

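For the 100 cGy response at 24 h in shRNA cells, 14 genes were called; Saa3, Prelp, C1s1 and Lbp kept their calls in every alternative run, the other 10 lost theirs in at least 1, and 0 changed direction. Leaving out 1 array gave 7 to 12 calls, and 5 remained with untreated replicates 1 and 3 both left out, chosen after seeing the data. The labels number replicates without saying what a number shares. Same-numbered arrays correlated positively in every pair for 100 cGy and untreated vector arrays and for 100 and 10 cGy shRNA arrays. They did not for the 100 cGy and untreated shRNA arrays. Some differently numbered arrays correlated positively too, so the numbers are not shown to pair arrays. With the replicate block 24 genes were called in shRNA cells, 17 in vector cells, 18 between 100 and 10 cGy, 11 for the difference between lines and 22 for the difference between times; the 14 shRNA, 8 vector and 14 dose calls were kept. Vector cells had 8 calls, and 4 to 6 with 1 array left out. Averaged probe sets gave 4 higher and 4 lower vector calls, beside 6 and 2. The difference between lines had 7 calls, 11 with only the compared groups fitted, 4 with untreated shRNA replicates 1 and 3 left out, 6 to 9 with 1 array left out, and a split of 8 higher and 0 lower after centring, beside 6 and 1. The comparison of 100 with 10 cGy had 14 calls, 9 under the 50% filter, 6 with only the compared groups, and 9 to 12 with 1 array left out. The difference between times had 13 calls, 8 with only the compared groups, 8 without the 2 h arrays of raised Gapdh difference (also chosen after seeing the data), 4 without untreated 24 h replicates 1 and 3, and 8 to 22 with 1 array left out. The 10 cGy response had 0 calls in every fit. Fits on fewer arrays have fewer degrees of freedom; the cause of the other shifts was not tested. With 3 arrays a group, small changes can go uncalled.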
